A study of Mus musculus with 12 samples.

Results

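The genes of the PTH receptor and its cAMP pathway were followed through the RNA-Seq libraries of sorted osteoblasts and of MC3T3-E1 cells. The group was a fixed list of 10 genes, read by symbol. It held the receptor gene *Pth1r*, the ligand gene *Pthlh*, the Gs alpha gene *Gnas*, the phosphodiesterase genes *Pde4b*, *Pde4d* and *Pde10a*, the G-protein regulator *Rgs2*, the transcription factor genes *Crem* and *Creb1* and the protein kinase A (PKA) inhibitor gene *Pkig*. All 10 were among the 23284 genes listed for sorted osteoblasts and the 24346 listed for MC3T3-E1 cells. Col2.3-ECFP mice express a cyan reporter in mature osteoblasts from a fragment of the type I collagen promoter. Female mice of this line, aged 12 weeks at the start, received vehicle (PBS) or human PTH (1-34), its active N-terminal part, subcutaneously, in daily doses of 40 µg/kg given 5 days a week over 3 weeks. Cells negative for 7AAD, lineage markers and CD45 and positive for ECFP were sorted 24 h after the last injection, and 3 libraries were made per group. MC3T3-E1, a clonal line of osteoblast precursors, had been transduced with the retroviral vector pMX-IRES-Puro, either empty (mock) or carrying mouse *Slpi* cDNA, and selected with puromycin, with 3 libraries per group. Both groups of cells thus carried the vector and had been through selection. Nothing states that the MC3T3-E1 libraries came from separate cultures, so *p* values measure only the spread between these libraries, which may be technical.

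PTH and the PTH-related protein encoded by *Pthlh* bind the same receptor, a G protein-coupled receptor of osteoblasts, osteocytes and kidney tubules. The active receptor switches on Gs alpha, which stimulates adenylyl cyclase to make cAMP, and cAMP releases the catalytic subunits of PKA, which phosphorylate CREB1 and related factors at promoters. The signal is limited by phosphodiesterases that break down cAMP, by RGS proteins that speed the shutdown of G proteins, by PKA inhibitor peptides and by the repressor forms of CREM. Several of these brakes, *Rgs2* and *Crem* among them, are known as early targets of PTH in osteoblasts.

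RefSeq promoters (GRCm38.p6, the assembly of mm10) were used for 9 of the 10 genes, all but *Crem*, as 20 start sites. Each ran from 250 bases before to 50 bases after an annotated start. They were searched on both strands for the cAMP response element TGACGTCA and for its shorter core TGACG, whose reverse complement is CGTCA. The full element was in none of the 20, against 1.79% of all 32851 promoters in the table. Nothing is said here of the promoters of *Crem*. The core was in 7 of the 20, belonging to 5 genes, against 20.8% of all. The *Gnas* windows that start at 174327499 and 174327518 overlap and hold the same core site, 38 and 57 bases upstream. Windows of the same gene are not independent, so nothing is read from these shares. The promoters shown belong to *Rgs2*, which among the called members had the largest rise with PTH, to *Pth1r* at its most upstream start, which had the largest change in *Slpi*-overexpressing cells, and to *Creb1*, which fell with PTH. The core motif is in capitals and all other bases are in lower case. It lies 185 and 67 bases upstream of the start in *Rgs2* and 161 bases upstream in the *Pth1r* window shown, and is not in the window of *Creb1*. The other *Pth1r* windows, which start at 110742561 and 110743637, do not hold the core. Which start of *Pth1r* these cells use was not tested.
*Rgs2*, chr1:144004100-144004399, minus strand: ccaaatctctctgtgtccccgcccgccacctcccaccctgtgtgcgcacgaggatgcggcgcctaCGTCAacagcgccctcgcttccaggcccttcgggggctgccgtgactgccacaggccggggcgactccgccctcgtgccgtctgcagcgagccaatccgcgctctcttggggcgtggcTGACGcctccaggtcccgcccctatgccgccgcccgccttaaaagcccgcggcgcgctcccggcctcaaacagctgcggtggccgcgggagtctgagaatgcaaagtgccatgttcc
*Pth1r*, chr9:110747096-110747395, minus strand: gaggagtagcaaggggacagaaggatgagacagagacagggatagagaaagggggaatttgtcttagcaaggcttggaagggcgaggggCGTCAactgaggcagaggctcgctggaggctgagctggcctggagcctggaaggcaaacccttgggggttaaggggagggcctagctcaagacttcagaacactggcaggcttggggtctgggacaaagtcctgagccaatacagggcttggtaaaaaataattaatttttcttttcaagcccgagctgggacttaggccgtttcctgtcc
*Creb1*, chr1:64532554-64532853, plus strand: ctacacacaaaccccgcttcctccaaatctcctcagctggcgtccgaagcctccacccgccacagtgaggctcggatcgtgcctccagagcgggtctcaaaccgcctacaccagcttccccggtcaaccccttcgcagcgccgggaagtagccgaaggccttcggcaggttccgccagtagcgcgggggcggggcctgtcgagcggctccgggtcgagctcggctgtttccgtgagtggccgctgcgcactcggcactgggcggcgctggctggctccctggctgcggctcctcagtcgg

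The authors deposited FPKM, the fragments of a gene per kilobase of its transcript and of sequencing depth, so levels of different genes can be set side by side per length. FPKM summed to between 400839 and 462460 in libraries of sorted osteoblasts and between 541932 and 599746 in those of MC3T3-E1 cells. The number of reads per library is not given by FPKM. The steps between the lowest values put the depth of the other osteoblast libraries at between 0.787 and 1.40 times that of vehicle replicate 1. Marker lists showed that the sorted osteoblasts expressed *Bglap*, *Sp7*, *Ibsp* and *Alpl*, but also held RNA of other cells in amounts that differed between libraries. *Col1a1* and *Col1a2* are listed at 0 in vehicle replicate 3 and all PTH libraries, where other osteoblast genes are high, and were left out of the summed osteoblast level. The 10 neutrophil markers summed to between 377 and 469.8 FPKM in the vehicle libraries and between 702 and 2362 with PTH, lowest in PTH replicate 3. The 9 T and NK cell markers summed to between 104 and 165 FPKM with vehicle and between 1.20 and 23.2 with PTH, again lowest in PTH replicate 3. The 5 cardiac muscle markers reached 2835 FPKM in PTH replicate 2 and at most 16.7 in any other library. In bulk RNA, fewer cells of a type and less RNA per cell cannot be told apart. In MC3T3-E1 cells the summed neutrophil, T and NK cell and monocyte lists were at most 1.74, 0.15 and 3.80 FPKM.

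**Figure D1:**
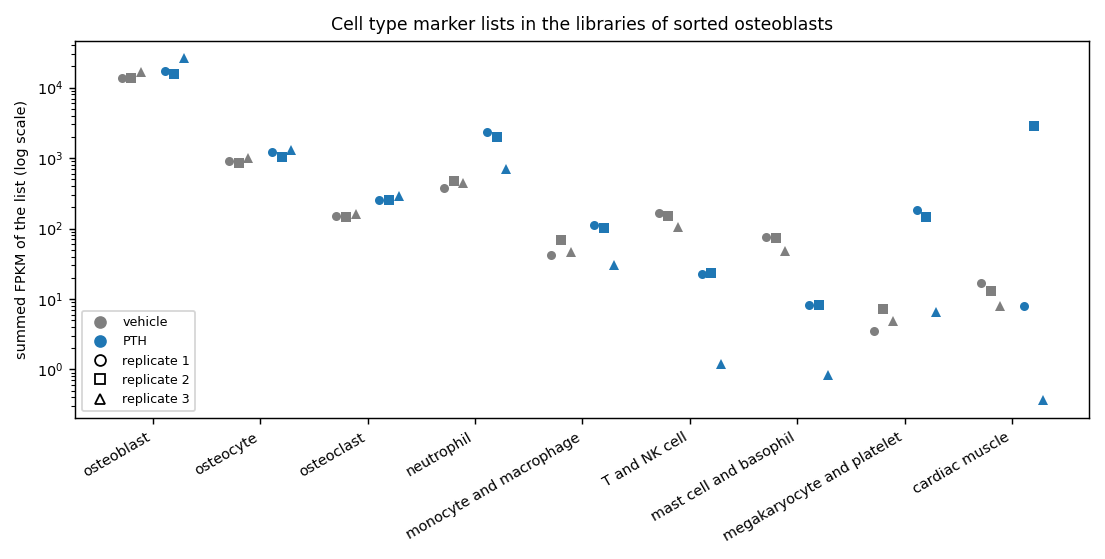
Summed FPKM (log scale) of lists of cell type markers in each library of sorted osteoblasts, with grey symbols for vehicle, blue for PTH and shapes for replicates. The T and NK cell list is lower in all PTH libraries, the neutrophil list is higher, and the cardiac muscle list stands out in PTH replicate 2.

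Between PTH-treated and vehicle-treated osteoblasts, *Rgs2* and *Gnas* rose and *Creb1* fell, while the receptor gene itself did not pass the test. *Rgs2* was 1.86 and *Gnas* 1.63 times as high with PTH as with vehicle, and *Creb1* was at 0.576 of its vehicle level. The test was limma on log2(FPKM + 1) over the 13004 genes that reached an FPKM of 1 in 1 library or more, with Benjamini-Hochberg adjustment over all of them, and a gene was called at an adjusted *p* under 0.05. Of the 10 genes, 9 were tested and *Pthlh* was too low. The called members, 2 higher and 1 lower, are 3 of 9, against 15.2% of all tested genes (6.38% called higher and 8.85% called lower). The groups did not overlap for *Gnas*, *Rgs2*, *Crem* and *Creb1*, nor for *Pde10a*. *Pde10a* passed the filter only through PTH replicate 1, in the group where it was high. The filter thus favoured a difference, and nothing is read from that of *Pde10a*. Over all tested genes 40.4% did not overlap (19.5% higher and 20.9% lower), and nothing is read from the members' count. None of the 9 reached a 2-fold difference on this scale, which at an unadjusted *p* under 0.05 was met by 1.24% of all tested genes upward and 4.35% downward. The median log2 fold change of the 9, *Pde10a* included, was 0.39, against 0.0066 over all tested genes, as a description only. For a single gene, a two-sided exact permutation test with 3 libraries per group has 0.10 as its smallest *p*.

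*Pthlh*, the gene of PTH-related protein, is a paracrine ligand, whereas PTH itself comes from the parathyroid glands. Vehicle replicates 1, 2 and 3 had an FPKM of 0.480, 0.152 and 0.179, and the PTH replicates, in the same order, 0.322, 0.0957 and 0.171. The ranges overlapped in part, with the highest value in a vehicle library and the lowest in a PTH library. Multiplied by relative depth, these values were whole multiples, to within 0.1, of a single step, which would be 4, 1 and 2 reads in the vehicle group and 3, 1 and 2 in the PTH group if the step is 1 read. Without the filter, its log2 fold change was -0.082 (limma 95% interval -0.38 to 0.22), and a difference of this size is not detectable at such depth. *Pth*, the hormone gene, and *Pth2r*, the gene of the second PTH receptor, were listed at 0 in all 6 libraries. The injected peptide is of human sequence and is not seen by RNA-Seq of the mouse cells.

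*Pth1r* lies on chromosome 9 of mm10 from 110722085 to 110747145, on the minus strand. With vehicle it was at 98.2, 89.8 and 105 FPKM, and with PTH at 112, 104 and 147 FPKM in replicates 1, 2 and 3. PTH replicate 2 lay below the highest vehicle library, and PTH replicate 3 stood above the other two. The vehicle mean was 97.5 ± 7.46 and the PTH mean 121 ± 22.9 (SD over 3 libraries), a log2 fold change of 0.30 with a standard error of 0.145 (95% interval -0.046 to 0.64, adjusted *p* = 0.2002 by limma). The interval holds no change as well as a rise of 0.64. The value was 0.15 without PTH replicate 3 and 0.065 with quantile normalization, so its size rested on that library and on the scaling. PTH replicate 3 also had the highest summed level of the osteoblast markers, 26471 FPKM, against 13850 to 17496 in the other 5 libraries. *Myl3*, a heart and slow muscle gene, overlaps *Pth1r* on the opposite strand. It had an FPKM of 21.5 in PTH replicate 2, where cardiac muscle genes were present, and at most 0.647 elsewhere, and *Pth1r* was lowest of the PTH libraries there.

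*Gnas*, which encodes the G protein subunit that couples the receptor to adenylyl cyclase, was the highest of the 10 genes in every library. Its FPKM was 497, 443 and 521 with vehicle and 721, 774 and 889 with PTH. All PTH libraries lay above all vehicle libraries. The log2 fold change was 0.70 with a standard error of 0.114 (adjusted *p* = 0.0175 by limma). The call was lost without vehicle replicate 1 or vehicle replicate 2, at 0.72 and 0.64 and adjusted *p* of 0.0851 and 0.0808, and kept without any other library. The locus is imprinted and makes several transcripts, which a value per gene cannot separate. Its antisense partner *Nespas* was listed at 0 in 5 of the 6 libraries and at 0.0547 in PTH replicate 3.

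*Rgs2* encodes a small GTPase-activating protein that acts mainly on Gq and also dampens adenylyl cyclase. It lies on chromosome 1 from 143999338 to 144004161, on the minus strand. With vehicle it was at 28.0, 24.5 and 26.6 FPKM, and with PTH at 50.9, 43.7 and 53.0 FPKM. The lowest PTH value was well above the highest vehicle value. The mean rose from 26.4 ± 1.76 (SD, n = 3) to 49.2 ± 4.86 (SD, n = 3), a log2 fold change of 0.87 with a standard error of 0.112 (adjusted *p* = 0.0138 by limma). Leaving out single libraries moved it between 0.82 and 0.95. The adjusted *p* then reached 0.0746 and the call was lost without vehicle replicate 1 or vehicle replicate 2, where 1 and 0 genes of the whole table were called. *Rgs2* ranked 368 by size among all rises. *Gnas* and *Rgs2* were both highest in PTH replicate 3, the PTH library with the lowest neutrophil and T and NK cell levels. That library also had the highest summed level of the osteoblast markers, 26471 FPKM. Relative to *Pth1r*, both genes were lowest there among the PTH libraries, at 6.04 and 0.360. The part of cell composition in their levels was not tested.

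The phosphodiesterases of this group did not pass the test. *Pde4b* and *Pde4d* encode cAMP-specific enzymes of the rolipram-sensitive family, and *Pde10a* an enzyme that breaks down cAMP and cGMP. The FPKM of *Pde4b* was 7.83, 8.25 and 5.89 with vehicle and 10.5, 10.8 and 6.71 with PTH. The replicates 1 and 2 of PTH were above all vehicle libraries and replicate 3 was within their range, a log2 fold change of 0.30 (95% interval -0.19 to 0.78, limma adjusted *p* = 0.347). In the same libraries the neutrophil list was at 2362, 1971 and 702 FPKM, the megakaryocyte and platelet list at 185, 148 and 6.47 FPKM and the monocyte and macrophage list at 111, 103 and 30.3 FPKM, all in the order high, high and low of *Pde4b*. The T and NK cell list had that order too, at 22.9, 23.2 and 1.20 FPKM. It was higher with vehicle, at 165, 148 and 104. In the vehicle libraries the neutrophil list was at 377, 469.8 and 439 FPKM. The megakaryocyte and platelet list was at 3.51, 7.13 and 4.84 FPKM there, and the monocyte and macrophage list at 41.5, 68.7 and 46.2. With vehicle these last lists were lowest in replicate 1, and *Pde4b* was lowest in replicate 3. The part of these cells in the values was not tested. The log2 fold change of *Pde4b* was 0.50 without PTH replicate 3, 0.19 without PTH replicate 2 and 0.17 without vehicle replicate 3. *Pde4d* had an FPKM of 5.12, 3.92 and 4.58 with vehicle and 5.66, 4.74 and 5.84 with PTH, and the groups overlapped. Its log2 fold change was 0.21 (95% interval -0.12 to 0.55, limma adjusted *p* = 0.332).

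*Pde10a* was low, at 0.4999, 0.159 and 0.467 FPKM with vehicle and 1.01, 0.964 and 0.965 with PTH. The groups did not overlap and the PTH values were close together. Its ratio of means was 2.61, while the log2 fold change of (FPKM + 1), which understates the change of a low gene, was 0.53 (1.28 with a pseudocount of 0.1) with a standard error of 0.201 (adjusted *p* = 0.115 by limma). It passed the filter only through PTH replicate 1. In steps of its lowest value, the vehicle libraries were at 4, 1 and 5, and the PTH libraries at 9, 9.67 and 10.8. PTH replicates 2 and 3 were not at whole multiples to within 0.1, so the steps are not taken as numbers of reads.

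*Pkig* encodes the gamma form of the PKA inhibitor, a small protein that blocks the catalytic subunit and carries it out of the nucleus. Its FPKM was 9.69, 11.9 and 8.44 with vehicle and 10.6, 23.0 and 12.3 with PTH. Only PTH replicate 2 stood apart, which is also the library with cardiac muscle genes. The log2 fold change of 0.50 (95% interval -0.15 to 1.16, limma adjusted *p* = 0.246) became 0.19 without that library, and whether RNA of heart muscle adds to *Pkig* was not tested.

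Of the transcription factor genes, *Creb1* fell and *Crem* did not pass the test. *Creb1*, the main PKA-driven activator, had an FPKM of 6.47, 6.02 and 5.94 with vehicle and 4.09, 3.56 and 2.98 with PTH. No PTH value reached the lowest vehicle value. Its log2 fold change was -0.66 with a standard error of 0.138 (adjusted *p* = 0.0280 by limma). Leaving out single libraries moved it between -0.75 and -0.57. The call held without PTH replicate 2 or 3, but was lost without PTH replicate 1 and without each of the vehicle libraries, with an adjusted *p* of up to 0.112. Over the same libraries the T and NK cell markers fell, 6 of 8 tested, and both *Creb1* and that list were lowest in PTH replicate 3. The part of lymphocyte RNA in the vehicle level of *Creb1* was not tested.

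*Crem*, whose short forms repress cAMP-responsive promoters, had an FPKM of 6.43, 6.75 and 6.98 with vehicle and 9.27, 9.87 and 8.33 with PTH. Every PTH value was above every vehicle value, and the log2 fold change was 0.39 with a standard error of 0.114 (adjusted *p* = 0.0601 by limma). With quantile normalization it was 0.46 and passed at an adjusted *p* of 0.0423 (limma). FPKM per gene do not tell the repressor forms from the activator forms. Within each library, *Crem* stood at 0.994, 1.12 and 1.17 times the level of *Creb1* with vehicle and at 2.27, 2.77 and 2.80 times with PTH, a ratio that does not depend on the scaling of the library.

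**Figure D2:**
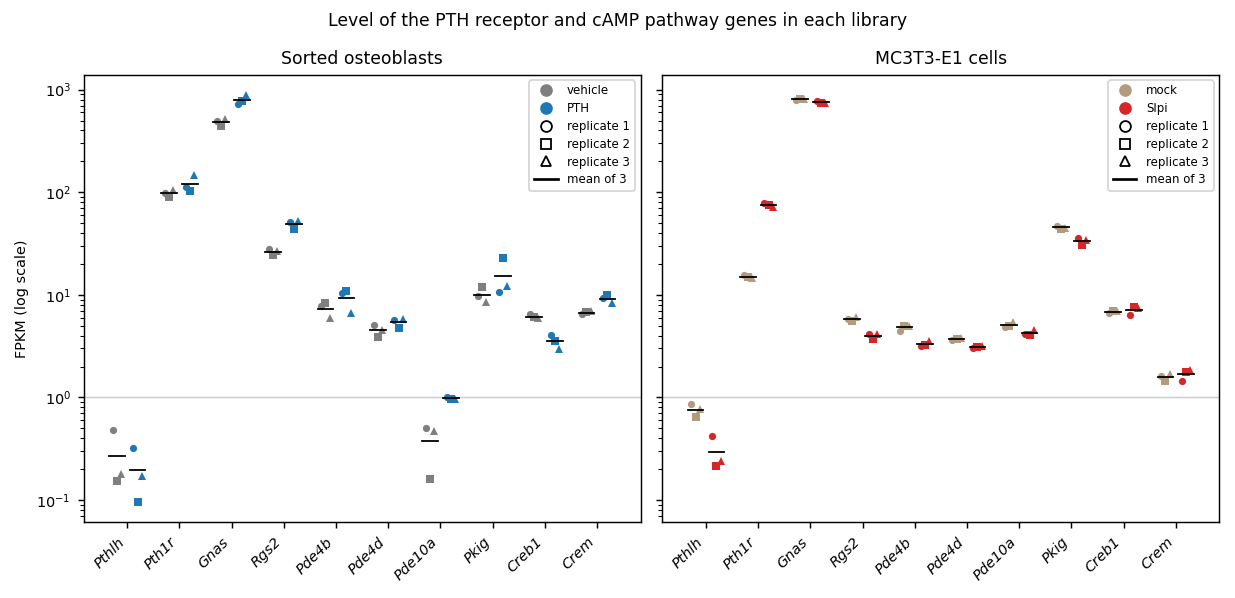
FPKM (log scale) of the 10 genes in each library of sorted osteoblasts (left) and MC3T3-E1 cells (right), with a symbol per replicate and a line at the mean of 3. The grey line marks the FPKM of 1 used as a filter. *Rgs2* and *Gnas* separate upward and *Creb1* downward with PTH, and *Pth1r* separates most in *Slpi*-overexpressing cells.

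In *Slpi*-overexpressing MC3T3-E1 cells the pattern was different. *Pth1r* rose 5.02-fold over mock, while *Rgs2*, *Pde4b*, *Pkig*, *Pde4d*, *Pde10a* and *Gnas* were lower, at between 0.937 of the mock level for *Gnas* and 0.691 for *Pde4b*. Of 11466 tested genes, 60.8% were called (31.9% higher and 28.9% lower), so the 7 of 9 tested members that were called, 1 higher and 6 lower, stand close to that background. The groups did not overlap for 7 of the 9, against 67.1% of all tested genes (34.9% higher and 32.2% lower), and 7 had an unadjusted *p* under 0.05, against 64.9%. Size separates *Pth1r* from the other tested members, since it alone of the 9 was at least 2-fold changed. Of all tested genes, 0.733% were at least 2-fold higher at an adjusted *p* under 0.05 (at an unadjusted one, 0.75% were higher and 0.384% lower by that much). The median log2 fold change of the 9 was -0.20, against 0.0041 over all tested genes.

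The FPKM of *Pth1r* was 15.6, 14.85 and 14.6 in mock and 78.5, 75.6 and 72.2 in *Slpi*-overexpressing cells. The groups lay far apart and each was tight, with means of 15.0 ± 0.536 and 75.4 ± 3.20 (SD, n = 3 each). The log2 fold change was 2.25 with a standard error of 0.0428 (adjusted *p* = 3.2e-08 by limma) and leaving out single libraries moved it between 2.22 and 2.28. By size it ranked 20 among all rises. *Myl3* on the other strand was at most 0.287 FPKM in these libraries. Of the 9 other osteoblast markers, 7 were also called higher, among them *Ibsp*, *Alpl* and *Sp7* with log2 fold changes of 3.22, 1.71 and 1.49, while *Spp1*, the gene of osteopontin, was lower at -0.39.

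*Pthlh* was below the filter in all 6 libraries, at 0.854, 0.646 and 0.765 FPKM in mock and 0.423, 0.215 and 0.242 in *Slpi*-overexpressing cells. The groups did not overlap. The ratio of its means, *Slpi* over mock, was 0.389. In the fit without a filter its log2 fold change of (FPKM + 1) was -0.44 with a standard error of 0.0731 (adjusted *p* = 0.00351 by limma). Receptor and ligand transcripts thus differed in opposite directions between these groups, the ligand at a level under 1 FPKM.

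*Gnas* had an FPKM of 792, 803 and 819 in mock and 777, 740.4 and 746 in *Slpi*-overexpressing cells. The groups did not overlap, but the difference was the smallest of those called. Its log2 fold change of -0.093 with a standard error of 0.0333 (adjusted *p* = 0.0386 by limma) lost its call without mock replicate 1, 2 or 3 and without *Slpi* replicate 2 or 3, where the adjusted *p* reached 0.152, and also with a replicate block, at 0.0634. With quantile normalization the value was -0.29 and the call was stronger (adjusted *p* = 1.9e-04 by limma), so its size depended on the scaling. The FPKM of *Rgs2* was 5.78, 5.50 and 6.02 in mock and 4.15, 3.75 and 4.115 in *Slpi*-overexpressing cells. It fell by 0.44 on the log2 scale (adjusted *p* = 2.9e-04 by limma), with every *Slpi* library below every mock library.

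Among the enzymes that end the cAMP signal, *Pde4b* was at 4.46, 4.999 and 4.95 FPKM in mock and 3.19, 3.23 and 3.54 in *Slpi*-overexpressing cells. It fell by 0.43 (adjusted *p* = 5.2e-04 by limma) on the log2 scale and its groups did not overlap. *Pde4d* was at 3.66, 3.73 and 3.80 FPKM in mock and 3.035, 3.08 and 3.20 in *Slpi*-overexpressing cells. It fell by 0.20 on the log2 scale (adjusted *p* = 0.00974 by limma). *Pde10a* was at 4.81, 4.99 and 5.435 FPKM in mock and 4.116, 4.06 and 4.57 in *Slpi*-overexpressing cells. It fell by 0.21 on the log2 scale (adjusted *p* = 0.0182 by limma), and the call was lost without mock replicate 3 or *Slpi* replicate 2, with an adjusted *p* of up to 0.0698. *Pkig* fell from 46.9, 44.0 and 45.3 FPKM to 36.1, 30.5 and 34.3, a log2 fold change of -0.42 (adjusted *p* = 4.1e-04 by limma).

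*Crem* and *Creb1* did not pass the test in MC3T3-E1 cells. *Crem* was at 1.61, 1.44 and 1.71 FPKM in mock and 1.44, 1.78 and 1.85 in *Slpi*-overexpressing cells, with overlapping groups and a log2 fold change of 0.053 (95% interval -0.14 to 0.25, limma adjusted *p* = 0.609). *Creb1* was at 6.59, 6.88 and 6.90 FPKM in mock and 6.42, 7.57 and 7.51 in *Slpi*-overexpressing cells, with a log2 fold change of 0.066 (95% interval -0.081 to 0.21, limma adjusted *p* = 0.399). *Slpi* replicate 1 was the lowest library, and without it *Creb1* passed at 0.13 (adjusted *p* = 0.0407 by limma).

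**Figure D3:**
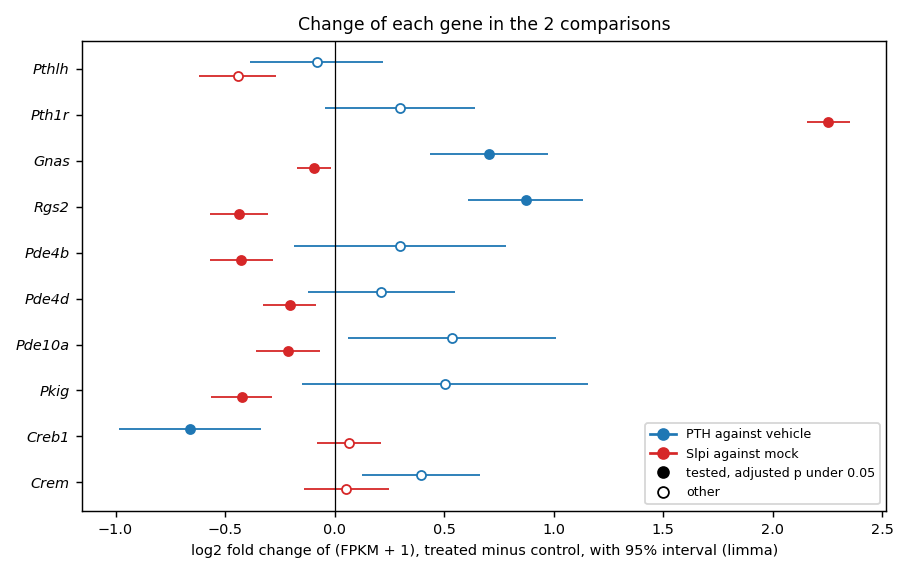
Log2 fold change of (FPKM + 1) for each gene with its 95% interval from limma, in blue for PTH against vehicle and in red for *Slpi* against mock, filled where the gene was tested and had an adjusted *p* under 0.05. *Pth1r* lies at 2.25 in *Slpi*-overexpressing cells, and *Rgs2* lies at 0.87 with PTH and at -0.44 in *Slpi*-overexpressing cells.

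The order of the levels differed between the systems, which were prepared and normalized separately, so their values are set side by side without a test. In vehicle-treated osteoblasts *Gnas* was followed by *Pth1r*, *Rgs2* and *Pkig*, each apart from the next. *Pde4b*, *Crem* and *Creb1* came next with ranges that overlapped their neighbours, then *Pde4d*, and last *Pde10a* and *Pthlh*, whose ranges overlapped. With PTH, *Pkig*, *Pde4b* and *Crem* overlapped in turn, and *Creb1* moved below *Pde4d*. In mock cells *Gnas* was followed by *Pkig*, at 45.4 ± 1.46 FPKM (SD, n = 3), and only then by *Pth1r*, and *Pde10a* and *Pde4b* overlapped. *Slpi* overexpression put *Pth1r* above *Pkig*, and *Pde10a* and *Rgs2* overlapped, as did *Pde4b* and *Pde4d*. Mock cells had *Pth1r* at 15.0 FPKM, against 97.5 in vehicle-treated osteoblasts, *Crem* at 1.59 against 6.72, *Rgs2* at 5.77 against 26.4, and *Pde10a* at 5.08 against 0.375.

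Ratios within a library do not depend on its scaling. The FPKM of *Gnas* was 5.06, 4.93 and 4.98 times that of *Pth1r* with vehicle and 6.42, 7.45 and 6.04 times with PTH. *Rgs2* was at 0.285, 0.273 and 0.254 of *Pth1r* with vehicle and 0.453, 0.421 and 0.360 with PTH. Both transcripts thus stood higher relative to the receptor in each PTH library than in any vehicle library. In MC3T3-E1 cells *Rgs2* was at 0.370, 0.370 and 0.412 of *Pth1r* in mock and 0.0529, 0.0496 and 0.0570 in *Slpi*-overexpressing cells, and *Gnas* went from between 50.7 and 56.1 times *Pth1r* to between 9.80 and 10.3 times.

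The wider pathway was read from lists of genes, 150 in their union. Of these 106 were tested in sorted osteoblasts, and 14 were called higher and 13 lower with PTH, which is 25.5% against 15.2% of all tested genes. Among receptor, G protein and desensitisation genes, 18 were tested, with 2 higher and 2 lower. *Gnai2*, an inhibitory alpha subunit, rose by 0.42 on the log2 scale, beside *Gnas*. *Grk6*, a kinase that desensitises receptors, and *Slc9a3r1*, which encodes the scaffold NHERF1 that binds PTH1R, had log2 fold changes of -1.15 and -1.21 (adjusted *p* = 0.0139 and 0.0245 by limma). Of 7 adenylyl cyclase genes tested, *Adcy6* was higher, from 10.3 ± 1.29 to 18.4 ± 3.06 FPKM (SD, n = 3 each), and *Adcy7* lower, from 3.85 ± 1.21 to 1.10 ± 0.293. Their log2 fold changes were 0.77 and -1.18.

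Of 13 phosphodiesterase genes tested, 2 were called, both lower, which is 15.4% and close to the 15.2% of all tested genes. The median log2 fold change of the list was 0.30. *Pde7a* fell from 18.9 ± 3.43 to 5.52 ± 2.13 FPKM (SD, n = 3 each) and *Pde1b* fell by 0.84 on the log2 scale. *Pde7a* is abundant in T cells. Of 9 genes for PKA subunits, inhibitors and Epac, *Prkar2a* and *Prkacb* fell, with log2 fold changes of -0.94 and -1.09 (adjusted *p* = 0.0133 and 0.0139 by limma), and *Prkar1b* rose by 0.72. *Prkacb*, a catalytic subunit, went from 33.2 ± 4.75 to 15.1 ± 2.07 FPKM (SD, n = 3 each). The falls of *Adcy7*, *Pde7a*, *Grk6* and *Prkacb* came with that of the T and NK cell markers, whose *Cd3g*, *Cd3e* and *Lck* had log2 fold changes of -4.11, -2.86 and -2.78, and the part of these cells in them was not tested. Without vehicle replicate 2, 0 of the pathway genes were called by limma, with 34 at an unadjusted *p* under 0.05, and without vehicle replicate 1 also 0, with 36. Without PTH replicate 1, 11 were called, 3 higher and 8 lower.

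The genes known to respond to PTH or cAMP were the list with the most calls upward with PTH, and also the list with the most tested genes. All 23 were tested, 7 were higher and 2 lower, where 6.38% of all tested genes were called higher and 8.85% lower, with a median log2 fold change of 0.47 against 0.0066 over all tested genes. Among them are the members *Rgs2*, *Crem*, *Pde4b* and *Pde4d*, so the counts in part repeat theirs. *Sik1* is counted again with the salt-inducible kinases. Besides *Rgs2*, the rises with the smallest adjusted *p* were those of *Ptgs2*, the gene of cyclooxygenase-2, *Per1*, a clock gene with cAMP response elements, and *Nr4a1*, an orphan nuclear receptor of the immediate early response. *Ptgs2* went from 231 ± 14.7 to 359 ± 25.4 FPKM (SD, n = 3 each). The log2 fold changes of *Ptgs2*, *Per1* and *Nr4a1* were 0.63, 0.85 and 0.67 (adjusted *p* = 0.0162, 0.0204 and 0.0368 by limma). In both groups the cells were freed by repeated collagenase digestion of bone, 24 h after the last injection. *Fos*, *Fosb* and *Ier3* of the same list, not called, were at means of 629, 389 and 430 FPKM with vehicle. The part of this handling in the levels of the list was not tested. *Tnfsf11*, which encodes RANKL, fell from 12.4 ± 0.619 to 6.78 ± 0.863 FPKM (SD, n = 3 each), and *Vdr*, the vitamin D receptor gene, fell by 0.59 on the log2 scale. Of 13 genes for CREB factors, coactivators and salt-inducible kinases, *Hdac5* and *Sik1* rose, by 0.57 and 0.73 on the log2 scale, and *Creb1* was the single one that fell. Of 12 RGS genes tested, *Rgs2*, *Rgs4* and *Rgs12* rose, with log2 fold changes of 0.87, 1.03 and 0.75, and *Rgs14* fell by 1.36. T and NK cell markers were lower in the same PTH libraries, and their part in the falls of *Tnfsf11* and *Rgs14* was not tested.

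In *Slpi*-overexpressing cells, 81 genes of the union were tested, 18 higher and 35 lower, which is 65.4% against 60.8% of all tested genes. The responsive genes went mostly downward, with 2 higher and 10 lower of 18 tested, where 31.9% of all tested genes were called higher and 28.9% lower. Their called share of 66.7% is near that of all tested genes. The median log2 fold change was -0.19, against 0.0041 over all tested genes. The list holds the members *Rgs2*, *Crem*, *Pde4b* and *Pde4d*, so its counts in part repeat theirs. *Vdr*, *Sik1*, *Rgs2* and *Dusp1* were lower, with log2 fold changes of -0.88, -0.72, -0.44 and -0.43, and *Mmp13*, the collagenase-3 gene, and *Cited1* were higher, at 0.63 and 0.44. Of 7 RGS genes tested, 5 were lower, led by *Rgs17*, *Rgs3*, *Rgs4* and *Rgs2*, and *Rgs12* was higher at 0.16. Of 10 phosphodiesterase genes tested, 6 were lower, among them *Pde8b* at -0.52 beside *Pde4b*, *Pde4d* and *Pde10a*, and *Pde1a* was higher at 0.35.

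Of 17 receptor, G protein and desensitisation genes tested in *Slpi*-overexpressing cells, 6 were higher and 6 lower. These counts, and those of the cyclase, PKA and CREB lists that follow, stand beside 31.9% of all tested genes called higher and 28.9% called lower, and nothing particular to these lists is read from them. *Grk6*, *Arrb2* and *Gnai3* were higher with *Pth1r*, by 0.22, 0.37 and 0.18 on the log2 scale. *Gnao1*, *Grk5*, *Slc9a3r1* and *Adrbk2*, the gene of the kinase GRK3, were lower, at -0.67, -0.39, -0.36 and -0.25. Of 4 adenylyl cyclase genes tested, *Adcy7* and *Adcy6* were lower, at -0.51 and -0.17. Of 7 genes for PKA subunits, inhibitors and Epac, *Prkar2a* was higher at 0.41, and *Pkig*, *Rapgef3* and *Prkar2b* were lower, at -0.42, -0.43 and -0.19. Of 13 genes for CREB factors, coactivators and salt-inducible kinases, *Sik3*, *Atf1* and *Crtc3* were higher, at 0.35, 0.15 and 0.14, and *Hdac4*, *Sik1*, *Sik2* and *Hdac5* were lower, at -0.38, -0.72, -0.29 and -0.14.

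**Figure D4:**
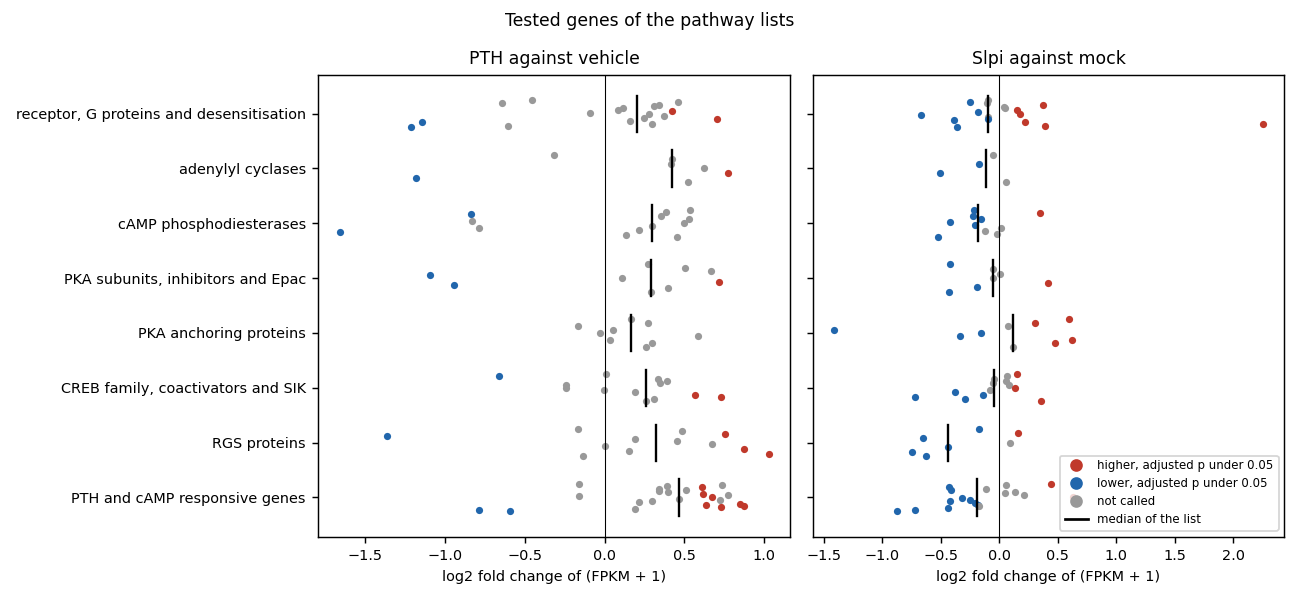
Log2 fold change of (FPKM + 1) of each tested gene in 8 pathway lists, red where called higher, blue where called lower and grey where not called, with a line at the median of the list. The responsive genes lie mostly to the right of 0 with PTH (median 0.47) and mostly to the left in *Slpi*-overexpressing cells (median -0.19), and the point at 2.25 is *Pth1r*.

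The genes whose level moved most like that of *Pth1r* were sought among 9536 genes with a mean FPKM of at least 1 in both systems, by the smaller of the Pearson correlations of log2(FPKM + 1) over the 6 libraries of each. They were *Smpd3*, *Cspg4*, *Tbx2*, *Raph1* and *Dlx3*, with a smaller r of 0.995, 0.994, 0.991, 0.990 and 0.988. They were picked by this r, so nothing is read from its height, and they describe 6 libraries per system that share their scaling. In MC3T3-E1 cells, where *Pth1r* was tight within groups that lay far apart, r largely restates the difference between the groups. *Smpd3*, which encodes a neutral sphingomyelinase of mineralizing tissue, was at 0.927 ± 0.0747 FPKM in mock and 19.7 ± 2.17 in *Slpi*-overexpressing cells (SD, n = 3 each). *Dlx3*, a homeobox gene of bone and tooth, was at 0.525 ± 0.0248 and 6.98 ± 0.745 FPKM (SD, n = 3 each). In sorted osteoblasts the vehicle mean of *Smpd3* was 103 ± 12.1 FPKM and the PTH mean 154 ± 45.03 (SD over 3 libraries), with the wide spread among PTH libraries that *Pth1r* has.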

How the data were processed

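RNA-Seq values of 12 libraries, 3 per group, were analysed. The authors deposited FPKM per gene and library. They mapped 75-base single-end HiSeq 2500 reads to mm10 with TopHat2 2.0.13, Bowtie2 2.2.3 and SAMtools 0.1.19 and calculated FPKM with Cuffnorm (Cufflinks 2.2.1). The gene annotation and the scaling option are not given in the sources used here. Libraries of MC3T3-E1 cells were made with a TruSeq stranded kit per the labels and with SMART-Seq v4 per the methods, and their values are rounded to 3 decimals. Samples were grouped by the titles of their labels.

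Each experiment was fitted on its own with limma 3.58.1 in R 4.3.3 (moderated variances with a mean trend) on log2(FPKM + 1), for genes that reached an FPKM of 1 in 1 library or more, without a replicate block. The *p* values were two-sided and adjusted by the Benjamini-Hochberg method over all tested genes. It was first tested on values with a known answer, simulated for 13004 genes of the osteoblast design, where it recovered 177 of 200 genes shifted by 2 on the log2 scale with 6 false calls, and for the 11466 genes of the MC3T3-E1 design, where it recovered 199 of 200 with 8 false calls. The simulated noise was independent for each gene and library. No member changed by 2 with PTH, so this recovery does not speak to the smaller changes called there. Depth is unknown beyond the relative depth from the steps of low values, and numbers of reads derived from it cover counting error only. Positions are from GENCODE M21, and exact permutation tests were computed with scipy 1.17.1 in Python 3.11.15. The members, gene lists and tests were chosen with earlier results of these data known. Named genes were the members, up to 4 called genes per list and direction with the smallest adjusted *p*, and the 5 genes most like *Pth1r*. Genes of marker lists named singly were chosen after their values were seen, as were *Myl3* and *Nespas*. Alternatives were a replicate block, no filter or a filter on the mean FPKM at 1, a smaller pseudocount (0.1), variances without the trend or without moderation, quantile normalization, and fits that dropped 1 library each.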

Additional observations from a re-analysis of the deposited data

How the results depend on the processing

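For PTH against vehicle, the 1981 genes called became 1310 without a filter on low values and 1 with an unmoderated linear model, where 0 members and 0 pathway genes were called by adjusted *p* in the linear model, with 5 members and 43 pathway genes at an unadjusted *p* under 0.05. With each library left out in turn, between 0 and 1569 genes, between 0 and 3 members and between 0 and 24 pathway genes were called, with 0 members without vehicle replicate 1 or vehicle replicate 2, against 5 and 4 at an unadjusted limma *p* under 0.05. For *Slpi* against mock, the counts of called genes, members and pathway genes stayed within 1.5 times the reported ones under all alternatives. Of the single values of the tested members, 103 of 115 with PTH and 106 of 117 with *Slpi* kept their direction and their side of the threshold. A call was lost in 11 and 10, gained in 1 and 1, and the sign changed in 0 and 0. These totals include members that were not called and had no call to lose. All 11 losses with PTH were in *Gnas*, *Rgs2* and *Creb1*, the called members, with 13 alternatives each. All 10 with *Slpi* were in *Gnas* and *Pde10a*. Deviations of samples with the same replicate number correlated at 0.029, 0.073 and 0.10 in sorted osteoblasts and at 0.039, -0.052 and -2.6e-04 in MC3T3-E1 cells, so the numbers were not taken to pair the samples. With a replicate block, 2262 genes, 3 members and 30 pathway genes were called with PTH, and 7172, 6 and 55 with *Slpi*. FPKM without read numbers limit what can be said of *Pthlh* and *Pde10a*.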

Other observations

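The PKA anchoring proteins hold the kinase near its targets. With PTH, where 15.2% of all tested genes were called, 0 of 9 tested genes were called by limma and 1 had an unadjusted *p* under 0.05, with *Akap2* at 3.58 ± 0.454 and 5.93 ± 1.45 FPKM (SD, n = 3 each) and *Akap8* at 7.23 ± 1.35 and 9.02 ± 0.604 having the smallest *p*. In *Slpi*-overexpressing cells 4 were higher and 3 lower of 9 tested, against 60.8% of all genes called. *Akap12*, a scaffold also known as gravin, fell from 20.1 ± 0.339 to 6.93 ± 0.215 FPKM (SD, n = 3 each), which on the log2 scale was -1.41 (adjusted *p* = 1.7e-07 by limma). *Akap2* and *Akap13* were lower at -0.34 and -0.16, and *Akap8*, *Akap1*, *Akap7* and *Akap10* were higher at 0.47, 0.59, 0.62 and 0.30.

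Other receptors that couple to Gs were low in both systems. Of 26 such genes, 7 passed the filter in the sorted cells and 1 in the MC3T3-E1 line. *Calcrl*, the calcitonin receptor-like gene, fell with PTH from 5.09 ± 1.58 to 0.705 ± 0.530 FPKM (SD, n = 3 each), which on the log2 scale was -1.86 (adjusted *p* = 0.0177 by limma), and *Adora2a*, an adenosine receptor gene of leukocytes among other cells, fell by 1.14 on the log2 scale. The T and NK cell markers fell in the same libraries, and their part in these values was not tested. *Ptger4*, a prostaglandin E2 receptor gene, was the one tested in MC3T3-E1 cells, at 2.02 ± 0.151 and 2.34 ± 0.256 FPKM (SD, n = 3 each) and an adjusted *p* of 0.140 (limma).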
